A study of Mus musculus with 16 samples.

Results

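The 87 protein-coding genes described here are the nuclear-encoded genes of the mitochondrial respiratory chain and ATP synthase. They were chosen by symbol alone, as the genes of the table whose names start with Nduf, Cox4 to Cox8, Uqcr or Atp5, out of 46078 genes in all. The set holds 7 core and 29 accessory subunits of complex I, 8 subunits of complex III, 10 common subunits and 8 tissue-specific isoforms of complex IV, and 15 subunits of complex V. The symbols also took in 7 assembly factors of complex I (the Ndufaf genes), the supercomplex factor Cox7a2l, and Atp5s and Atp5sl, which are named after complex V but are not among its subunits. Cox4i1, the common form of the largest nuclear-encoded subunit of complex IV, was not analysed here. Levels are given in CPM, the reads of a gene relative to all counted reads of its library. Genes were tested if 3 or more replicates of any group reached 1 CPM, which 14897 genes and 85 of the 87 did.

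Complex I takes electrons from NADH and complex III takes them from ubiquinol and hands them to cytochrome c. Complex IV passes them to oxygen, and complex V uses the proton gradient that the chain builds to make ATP. Several subunits of complex IV exist in pairs, with a form made in most cells and a form made in heart and skeletal muscle, such as Cox6a1 and Cox6a2. Subunit c of complex V is made from 3 genes, Atp5g1, Atp5g2 and Atp5g3, whose mature proteins are the same. Heart muscle is among the tissues with the most mitochondria, whereas juxtaglomerular (JG) cells are renin-producing cells in the wall of the kidney's afferent arteriole.

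By their labels, the libraries came from cultured mouse JG cells engineered to carry YFP behind the renin promoter. Cells were transfected with a miR-106b precursor or with a control precursor of non-mammalian sequence and were collected after 48 h. Each transfection has 4 libraries of polyA RNA and 4 of RNA bound to Ago2, the protein that holds miRNAs and their targets, after immunoprecipitation (Ago2-IP). The sources used here do not say whether libraries of both kinds share a culture. The study asked which mRNAs miR-106b changes in abundance and which it brings to Ago2.

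Depth ran from 2579086 to 9459585 counted reads per library, and the 87 genes took between 1.37% and 3.68% of them. The labelled cell type was checked first. Ren1, the renin gene, had 0 counts in all 16 libraries, which allows up to 0.317 CPM in the deepest of them, and Akr1b7, another gene of renin cells, had 6 counts in all. In contrast, all 25 genes of a cardiac muscle list were detected in every group, Myh6 (the adult heart myosin) at 9959.7 ± 1627 CPM (SD, n = 4) in polyA control libraries. The other 10 of 12 juxtaglomerular and mural markers, which smooth muscle cells and pericytes also make, were detected in every group, Acta2 (smooth muscle actin) at 752 ± 83.6 CPM in polyA control, where the list summed to 1568 to 1696 CPM. Mural genes were thus present, whereas the renin and cardiac values go against the labelled cell type, and the origin of the cardiac RNA is not known here. Replicate libraries of polyA miR-106b differed more from each other than those of the other groups, with replicate 1 furthest from the rest. Within each group, no pair of replicates was so alike that it looked like a repeat deposit of 1 library.

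Mature miR-106b-5p, encoded on chromosome 5 at 138165787 to 138165807 on the minus strand (GRCm38.p6), is shown because its seed, bases 2 to 8 in capitals, sets which 3′UTRs it can pair with.
miR-106b-5p: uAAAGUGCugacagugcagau
The complement of that seed, GCACTTT, lay in the longest annotated 3′UTR of 2 of the 85 genes tested (2.35%), against 14.8% of 13222 tested genes with a 3′UTR. With CACTTTA, a match to bases 2 to 7 followed by an A, counted as well, it was 4 genes (4.71%) against 22.2%, the further ones being Ndufab1 and Uqcrb. The 3′UTRs of the 85 genes were short, with a median of 203 bases against 1222. The 2 genes with GCACTTT were Ndufa10 and Ndufb2, accessory subunits of complex I, and the matches are shown in capitals with their flanks.
Ndufa10: cacccacccacccctGCACTTTgggtctc
Ndufb2: cacatcaattacataGCACTTTttggggg
In Ndufb2 the match lay at base 3926 of its longest annotated 3′UTR of 4012 bases, whereas its principal transcript is 455 bases long. Whether the Ndufb2 mRNA of these cells holds the match was not tested. These letters were searched in annotated sequence, not observed in the reads.

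In polyA RNA, nearly all genes of the respiratory chain were higher after miR-106b transfection. Of the 85 genes tested 76 rose, Cox6a1 fell, and 8 did not pass the test (edgeR's quasi-likelihood test, adjusted p under 0.05). Over all 14897 genes 40.5% were called, 19% higher and 21.5% lower. Log2 fold changes had a median of 0.77 over the 85 genes and -0.05 over all genes tested. Without miR-106b replicate 1, the library furthest from the others, 77 genes rose and 1 fell, and 23.5% of all genes were called higher and 21.5% lower. Without miR-106b replicate 2, 3 or 4 the genes that rose were 71, 76 and 72, against 16.1%, 20.2% and 15.1% of all genes, and 17.8%, 22.1% and 17.4% of all genes were lower. Without control replicate 1, 2, 3 or 4 the genes that rose were 74, 75, 74 and 74. Of all genes 18.4%, 16.7%, 17.3% and 18% were then called higher. Those called lower were 12.3%, 11%, 11.5% and 20% of all genes, against the 21.5% given above. In 72 of the 85 every miR-106b library lay above every control library, as it did for 16.8% of all genes, and in 2 every miR-106b library lay below, against 21.6% of all genes. Most changes were of similar size, with 66 of the 85 between 0.5 and 1 on the log2 scale and 6 above 1. Levels below are CPM normalized by TMM within each RNA kind, and fold changes are log2 values of miR-106b over control with their SE.

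**Figure D1:**
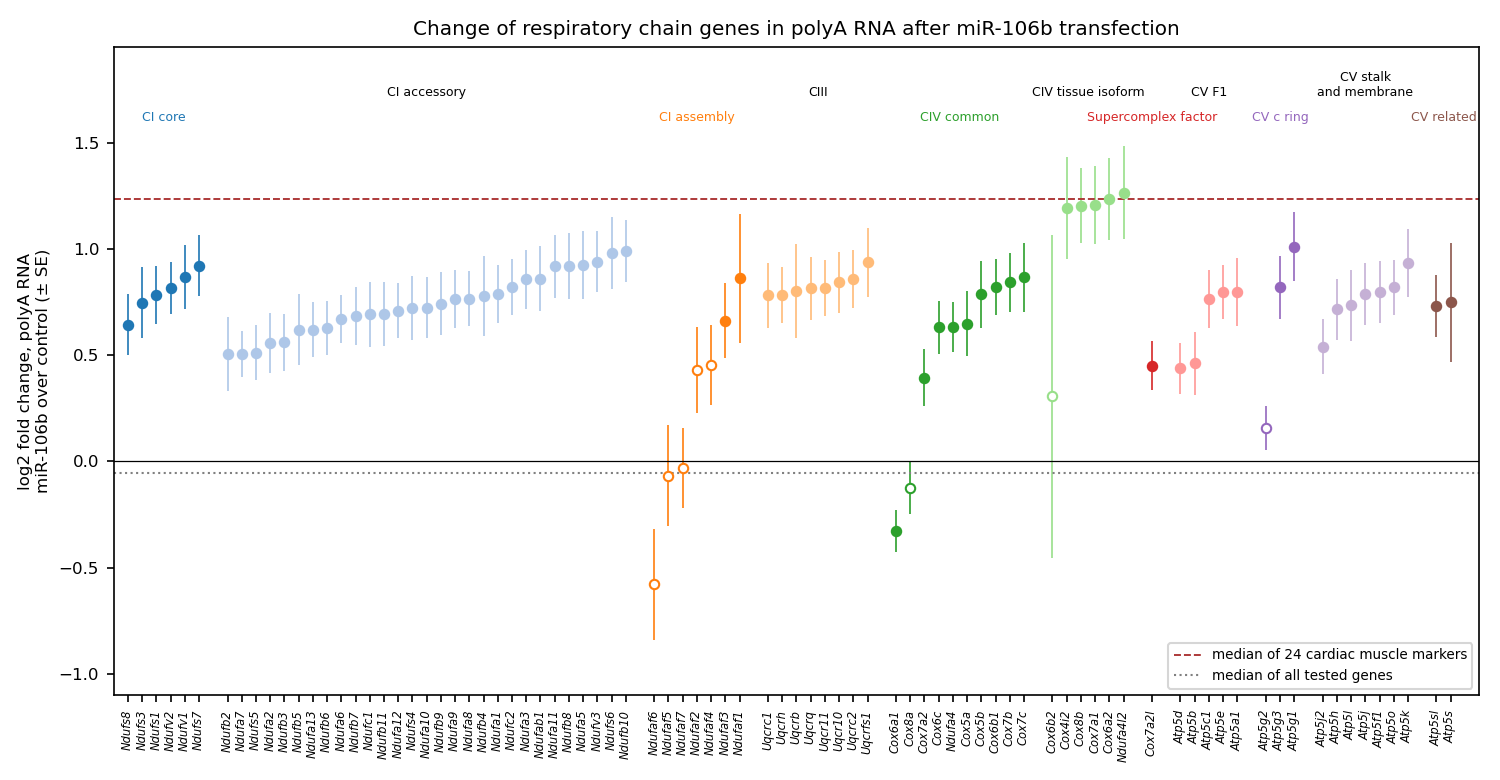
Log2 fold change (miR-106b over control, polyA RNA, ± SE) of tested genes (1 left out), grouped by complex and role, with filled points where the adjusted p was under 0.05. Most points lie between 0.5 and 1, the muscle isoforms of complex IV lie near the dashed line at 1.23 (median of 24 cardiac muscle markers), and Cox6a1 lies at -0.33.

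All 36 subunits of complex I rose, by 0.51 to 0.99, with a median of 0.75. Ndufs7, a core subunit that carries an iron-sulfur cluster, had the largest change of the 7 core subunits. Its level was 278, 228, 236 and 277 CPM in control and 402, 567, 405 and 556 CPM in miR-106b libraries, which is a rise of 0.92 on the log2 scale (SE 0.14, adjusted p = 0.000683). The groups did not overlap, and miR-106b replicates 2 and 4 were the high ones. The smallest change of a core subunit was 0.64 (SE 0.14) for Ndufs8, which also holds iron-sulfur clusters. Among the 29 accessory subunits, which surround the core and are needed for its assembly and stability, Ndufb10 rose most, from 208 ± 22.1 to 413 ± 81.2 CPM (SD, n = 4 each), and Ndufb2 least, from 7.40 ± 0.504 to 10.5 ± 0.850 CPM. Ndufa10 and Ndufb2, the genes with GCACTTT, rose by 0.72 (SE 0.14, adjusted p = 0.00195) and 0.51 (SE 0.17, adjusted p = 0.0343).

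The complex I assembly factors, which build the complex but are not part of it, were more mixed. Of 7 tested, 2 rose and 5 did not pass the test, and the median log2 fold change was 0.43. Ndufaf1 rose by 0.86 (SE 0.30, adjusted p = 0.0369) and Ndufaf3 by 0.66 (SE 0.18, adjusted p = 0.0101). The value of Ndufaf6 was -0.58 (SE 0.26, adjusted p = 0.0966), with 6.33, 6.30, 5.40 and 5.42 CPM in control and 4.93, 3.21, 2.48 and 5.19 CPM in miR-106b libraries. Ndufaf genes are low, and their 7 levels summed to 59.8 to 76.6 CPM in polyA control libraries.

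All 8 subunits of complex III rose, and they did so within a narrow range of 0.78 to 0.94. Uqcrfs1, the Rieske iron-sulfur subunit, was at 204, 172, 172 and 205 CPM in control and at 269, 421, 304 and 449 CPM in miR-106b libraries. Its log2 fold change was 0.94 (SE 0.16, adjusted p = 0.000949), and here too replicates 2 and 4 were highest. The core proteins Uqcrc1 and Uqcrc2 rose by 0.78 (SE 0.15) and 0.86 (SE 0.14).

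Complex IV held both the largest rises of the 85 genes and the fall. Of its 10 common subunits 8 rose, Cox6a1 fell and Cox8a did not pass the test. Of its 6 tested tissue isoforms 5 rose, each by more than 1 on the log2 scale. Cox5a and Cox5b, which have no muscle form, rose by 0.65 (SE 0.15, adjusted p = 0.00531) and 0.79 (SE 0.16, adjusted p = 0.002).

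Cox6a2, the heart and skeletal muscle form of subunit 6a, is on chromosome 7 at 128205436 to 128206366 (GRCm38). Its polyA level was 1001, 790.1, 878 and 1144 CPM in control and 1581, 2782, 1918 and 2695 CPM in miR-106b libraries. The groups did not overlap, and the log2 fold change of 1.24 (SE 0.19, adjusted p = 0.000683) is a 2.35-fold rise. Its common counterpart Cox6a1, on chromosome 5 at 115345642 to 115348981, moved the other way. Cox6a1 was at 388, 392, 388 and 395 CPM in control and at 341, 299, 309 and 296 CPM in miR-106b libraries, and its fold change on the log2 scale was -0.33 (SE 0.10, adjusted p = 0.0199). Again no miR-106b library overlapped the control range. The adjusted p was 0.0515 with DESeq2 size factors, 0.107 with no filter and 0.0619 with all 16 libraries in 1 fit. It was 0.16, 0.169 and 0.165 without control replicates 1, 2 and 3.

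For subunits 7a and 8 the muscle form rose as well, but the common form did not fall past the test. Cox7a1, the muscle form (chromosome 7, 30184171 to 30186028), was at 193, 151, 149 and 211 CPM in control and 291, 513, 343 and 478 CPM in miR-106b libraries, and rose by 1.21 (SE 0.18, adjusted p = 0.000683). Cox7a2, its common form, rose by 0.39 (SE 0.13, adjusted p = 0.0317), from 85.9 ± 5.25 to 113 ± 21.5 CPM (SD, n = 4 each), and its groups overlapped. Without miR-106b replicate 2 or 4 the adjusted p of Cox7a2 was 0.105 and 0.0776.

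Cox8b, the muscle form of subunit 8 (chromosome 7, 140898943 to 140900446), was at 198, 161, 170.4 and 231 CPM in control and 325, 528, 371 and 527 CPM in miR-106b libraries. It rose by 1.20 (SE 0.17, adjusted p = 0.000683). Cox8a, the common form (chromosome 19, 7215158 to 7217616), was at 202, 197, 194 and 168 CPM in control and 214, 153, 162 and 170.3 CPM in miR-106b libraries. These ranges overlapped, and its log2 fold change of -0.12 (SE 0.12, adjusted p = 0.454) turned to 0.00 when all 16 libraries were fitted together.

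The less abundant isoforms followed. Ndufa4l2, a hypoxia-inducible paralog of the complex IV subunit Ndufa4, rose by 1.26 (SE 0.22, adjusted p = 0.000958), from 15.4 ± 2.13 to 37.2 ± 12.5 CPM, while Ndufa4 itself rose by 0.63 (SE 0.12, adjusted p = 0.00135). Cox4i2, the lung and hypoxia form of subunit 4, rose by 1.19 (SE 0.24, adjusted p = 0.00203), from 4.02 ± 0.352 to 9.33 ± 2.52 CPM. Cox6b2, a testis form, was at 0.475, 0.420, 1.35 and 1.57 CPM in control and 0, 2.14, 0.552 and 2.23 CPM in miR-106b libraries, and did not pass the test (adjusted p = 0.774). Cox7b2 and Cox8c, also testis forms, had 6 counts each over all 16 libraries and were not tested. Cox7a2l, which links complexes III and IV into supercomplexes, rose by 0.45 (SE 0.12, adjusted p = 0.00789).

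**Figure D2:**
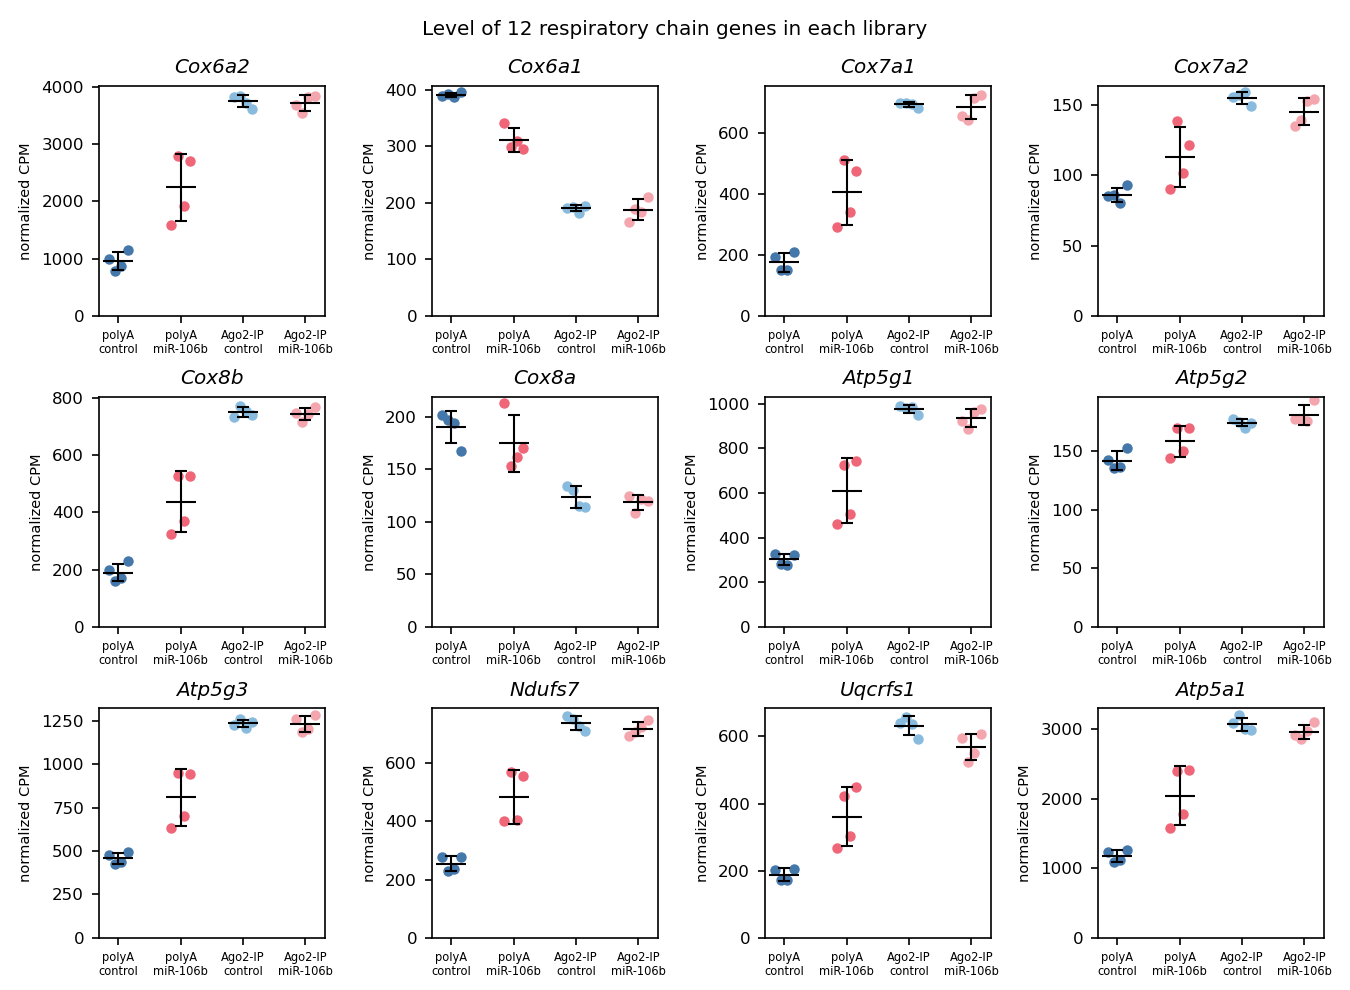
Normalized CPM (y axis, from 0) of 12 genes in each of the 16 libraries, by group, with the mean and SD of 4 replicates in black. Muscle forms such as Cox6a2 were lowest in polyA control, intermediate in polyA miR-106b and highest in Ago2-IP libraries, whereas Cox6a1 ran in the reverse order.

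Of the 15 subunits of complex V 14 rose, with a median of 0.79. In the catalytic F1 part, the alpha subunit Atp5a1 rose by 0.80 (SE 0.16, adjusted p = 0.00193), the gamma subunit Atp5c1 by 0.76 (SE 0.14, adjusted p = 0.00108) and the beta subunit Atp5b by 0.46 (SE 0.15, adjusted p = 0.0252). Atp5b was the most abundant of the 3 per length, at 966 ± 31.7 CPM per kb in polyA control, against 476 ± 33.7 for Atp5a1. Its call was lost without miR-106b replicate 2 or 4, with an adjusted p of 0.0734 and 0.0554. All 7 subunits of the stalk and membrane part rose, from 0.54 for Atp5j2 to 0.93 for Atp5k.

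The 3 genes of subunit c did not move alike. Atp5g1 (chromosome 11, 96068852 to 96075670) was at 326, 283, 279 and 321 CPM in control and 463, 726, 505 and 743 CPM in miR-106b libraries, and rose by 1.01 (SE 0.16, adjusted p = 0.000705). Atp5g3 (chromosome 2, 73908447 to 73911326) rose by 0.82 (SE 0.15, adjusted p = 0.00116). Atp5g2 (chromosome 15, 102662864 to 102672352) was at 143, 136, 136 and 153 CPM in control and 144, 169, 150.2 and 169.9 CPM in miR-106b libraries. The ranges of Atp5g2 overlapped, and its log2 fold change was 0.16 (SE 0.10, adjusted p = 0.238), or 0.28 (adjusted p = 0.0262) without miR-106b replicate 1 and 0.28 (adjusted p = 0.00707) with all 16 libraries in 1 fit. Of the 50-base stretches of Atp5g2 38.4% also occur in other annotated genes, so that its counts are less certain than those of Atp5g3, which shares none.

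The balance within each pair of isoforms was then compared in each library, as the log2 ratio of their counts, which does not depend on the scaling of libraries. In polyA RNA 6 of 7 pairs changed with miR-106b, each with no overlap of the groups (two-sided exact permutation p = 0.0286, which 4 libraries against 4 cannot go below, or 0.0333 adjusted over the 7 pairs). Cox6a2 to Cox6a1 went from 1.27 ± 0.23 to 2.81 ± 0.48 (SD, n = 4 each). Cox8b to Cox8a went from -0.01 ± 0.33 to 1.30 ± 0.53, and Cox7a1 to Cox7a2 from 1.02 ± 0.19 to 1.83 ± 0.13. In all 3 the muscle form gained on the common form. Ndufa4l2 gained 0.60 on Ndufa4, and Atp5g1 gained 0.18 on Atp5g3. Atp5g2 lost 0.64 against Atp5g3. The ratio of Cox6b2 to Cox6b1 rested on few counts and did not pass the test (exact permutation p = 0.4).

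Per length, Cox6a2 made up 66.9% ± 3.47 of subunit 6a mRNA in polyA control and 85.1% ± 4.31 after miR-106b (SD, n = 4 each). Cox8b went from 60.1% ± 5.40 to 78.6% ± 6.36 of subunit 8 mRNA and Cox7a1 from 77.2% ± 2.27 to 85.6% ± 1.09 of subunit 7a mRNA. The muscle form was therefore the larger share of each pair in both polyA groups. In Ago2-IP control libraries these shares were 94.3% ± 0.215, 90.3% ± 0.766 and 88.3% ± 0.192.

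**Figure D3:**
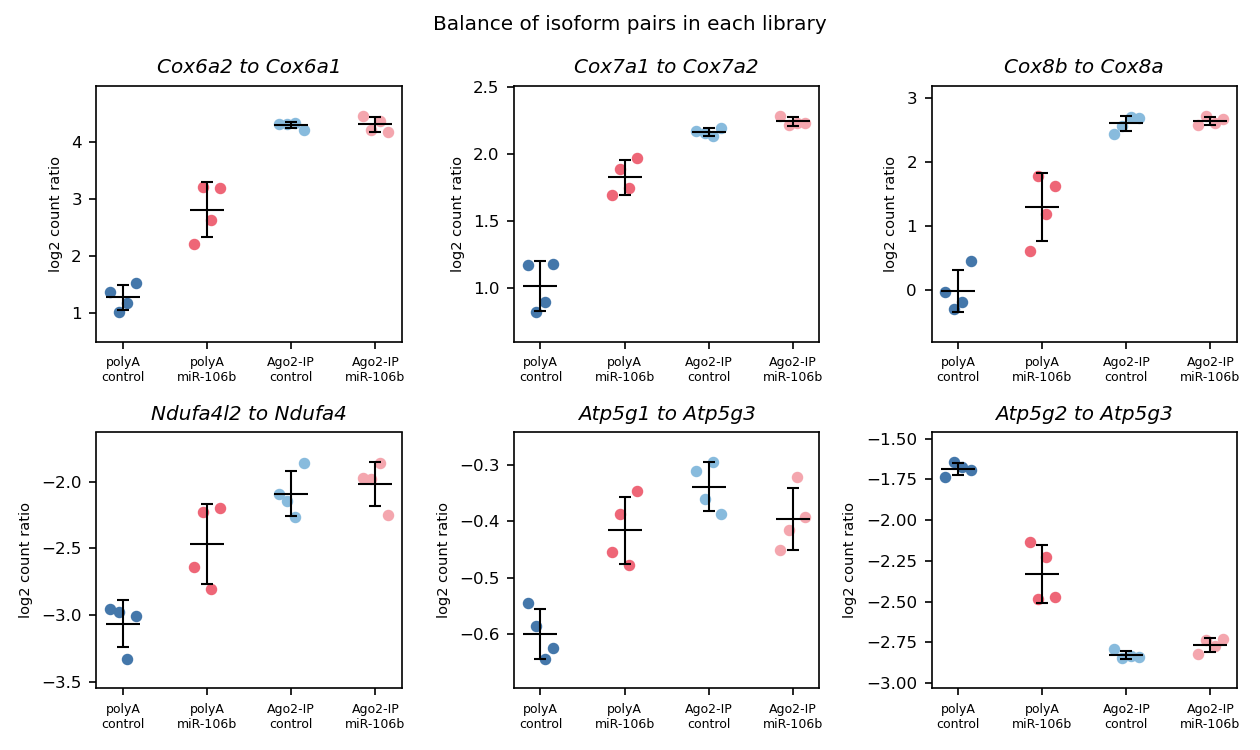
Log2 ratio of the counts of 6 isoform pairs in each library (y axes differ), with the mean and SD of 4 replicates in black. In each panel the polyA miR-106b libraries lie apart from the polyA control libraries, and the Ago2-IP groups of both transfections lie close together.

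Genes of the heart and other tissues moved along with the muscle isoforms, and the values are given here for the whole lists. Over all genes tested 19% were called higher in polyA RNA and 21.5% lower. Of 25 cardiac muscle genes 24 were tested and 23 rose in polyA RNA, by a median of 1.23 on the log2 scale. The exception was Myl4, an atrial light chain, at 0.35 (SE 0.39, adjusted p = 0.498) on 164 counts in all. The 25 genes summed to 26836 to 37818 CPM in polyA control, 53191 to 91285 in polyA miR-106b, 121680.0 to 129203 in Ago2-IP control and 117552 to 128105 in Ago2-IP miR-106b libraries. Summed levels of the 87 respiratory chain genes were 13634 to 15828, 19854 to 28778, 34853 to 36860.1 and 33755 to 36621 CPM in the same order. In both sums polyA miR-106b replicates 2 and 4 were the highest of their group and replicate 1 the lowest.

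All 10 endothelial markers and 10 of 11 markers of leukocytes and red cells also rose, with medians of 1.18 and 1.23. Of 12 juxtaglomerular and mural markers 10 were tested and 6 rose, with a median of 0.89 over the 10. Tagln, a smooth muscle gene, fell by 0.48 (SE 0.15, adjusted p = 0.0198). Of 10 kidney epithelial markers 3 were tested, and Lrp2 and Cubn fell, where 21.5% of all genes were called lower. The third, the water channel Aqp1, was at 411 ± 9.38 CPM in control and 317 ± 65.6 CPM in miR-106b libraries, a value of -0.38 (SE 0.14, adjusted p = 0.054), and the untested markers had at most 19 counts each. Summed over the list, in the same order of groups, endothelial markers were at 362 to 537, 709 to 1287, 1677 to 1767 and 1604.5 to 1738 CPM. Leukocyte and red cell markers were at 260.1 to 368, 535 to 909.9, 1221 to 1275 and 1179 to 1294 CPM. Juxtaglomerular and mural markers were at 1568 to 1696, 1424 to 1919, 1264 to 1307 and 1214 to 1316 CPM, and kidney epithelial markers at 418 to 452, 228 to 383, 342 to 360.4 and 324 to 364 CPM. All of these sums are scaled within each RNA kind, so that polyA and Ago2-IP values are not on a common scale. TMM factors over all 16 libraries were 1.138 to 1.145 in polyA control and 0.906 to 0.920 in Ago2-IP control. Small differences between the kinds can therefore come from the scaling. The part of these other cell types in the change of the respiratory chain genes was not tested. In bulk RNA, fewer cells of a type and less RNA per cell cannot be told apart.

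**Figure D4:**
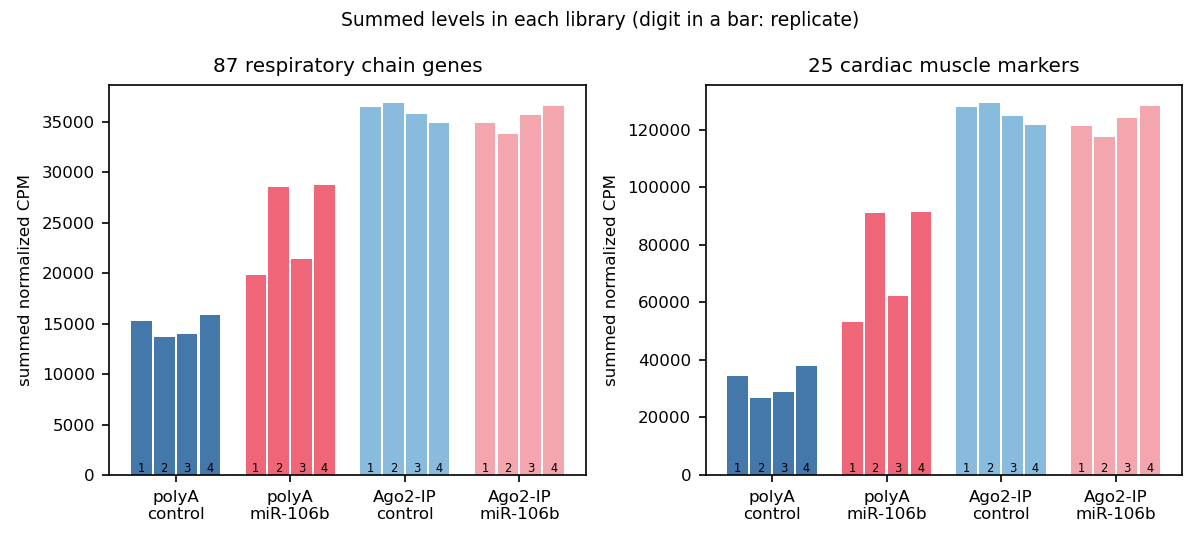
Summed normalized CPM of the 87 respiratory chain genes (left) and of 25 cardiac muscle markers (right), 1 bar per library with its replicate number, on y axes that start at 0. Both sums are lowest in polyA control and highest in Ago2-IP libraries, and within polyA miR-106b replicates 2 and 4 exceed 1 and 3 on both sides.

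Genes of the chain outside the 87 gave the following values in polyA RNA, where 19% of all genes were called higher and 21.5% lower. All 6 genes of a list of the 4 subunits of complex II, cytochrome c and Cyc1 rose, from 0.57 for Cycs (cytochrome c, SE 0.21, adjusted p = 0.0423) to 1.07 for Sdhb (the iron-sulfur subunit of complex II, SE 0.18, adjusted p = 0.000785). Cyc1, cytochrome c1, is a subunit of complex III that the choice by symbol did not take in, and it rose by 0.77 (SE 0.15, adjusted p = 0.00191). Of the 13 subunits encoded by mitochondrial DNA 11 were tested and 8 rose. Their values ran from 0.60 for mt-Atp8 to 1.35 for mt-Atp6, which had 78 counts in all and did not pass the test. Of 23 tested assembly factors of complexes III and IV 9 rose and 14 did not pass the test, with a median of 0.28. Of 9 regulators of respiratory genes 3 rose and 3 fell (33.3% each). The coactivators Ppargc1a and Ppargc1b rose by 1.21 (SE 0.25) and 1.26 (SE 0.20) and Esrra, a receptor they bind, by 0.67 (SE 0.15). The cardiac muscle markers had a median of 1.23, and the part of cardiac RNA in these rises was not tested. Gabpb1 fell by 0.88 (SE 0.17), Nrf1 by 0.46 (SE 0.12) and Yy1 by 0.45 (SE 0.14), with adjusted p of 0.00169, 0.00966 and 0.0225. Nrf1 and Yy1 are known to bind promoters of respiratory genes. Gabpb1 is the partner of Gabpa, the subunit of GABP that binds DNA, whose own value was -0.02 (SE 0.14, adjusted p = 0.932).

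In Ago2-IP RNA, no respiratory chain gene was called different between miR-106b and control. The count was 0 of 85 by edgeR's quasi-likelihood test, against 0% of all genes, and 0 by DESeq2's Wald test. At an unadjusted p under 0.05 there were 3 of the 85 genes and 826 of 14897. The median log2 fold change was -0.02 and the values lay between -0.28 and 0.29. For no gene of the 85 did the groups separate, as they did for 1.56% of all genes upward and 1.68% downward. Cox5a had the lowest value, -0.28 (SE 0.07, adjusted p = 0.639), with 556, 557, 534 and 491 CPM in control and 506, 413, 395 and 445 CPM in miR-106b libraries. Cox6a2 was at 3743 ± 104 and 3718 ± 138 CPM and Cox6a1 at 190.1 ± 5.23 and 188 ± 18.1 CPM (SD, n = 4 each). The isoform pairs differed by at most 0.08 on the log2 scale. The groups of Cox7a1 to Cox7a2 did not overlap, with log2 ratios of 2.13 to 2.19 in control and 2.22 to 2.29 after miR-106b (exact permutation p = 0.0286). Adjusted over the 7 pairs this p is 0.2, which is the lowest value that 1 such pair alone can reach. Ndufa10 and Ndufb2, with GCACTTT in their longest annotated 3′UTRs, had log2 fold changes of -0.05 (SE 0.04, adjusted p = 0.937) and 0.17 (SE 0.18, adjusted p = 0.947).

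The ratio of Ago2-IP to polyA RNA, the study's measure of how far an mRNA is loaded on Ago2, was high for respiratory chain genes in control cells. It was above 0 for 81 of the 85 genes and below 0 for Cox6a1 and Cox8a (adjusted p under 0.05 in a fit of all 16 libraries), against 35.1% and 34.6% of all genes, or 69.7% in either direction. The median log2 ratio was 1.58 over the 85 genes and -0.03 over all genes, and 77 of the 85 lay above 1. With scaling by library size only, the median of all genes moved to -0.35 and that of the 85 genes to 1.26, and 27.8% of all genes were called higher and 45.5% lower.

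The order of the genes in this ratio is given by role. The muscle and hypoxia isoforms were highest, with log2 ratios of 2.35 (SE 0.17) for Ndufa4l2, 2.30 (SE 0.21) for Cox4i2, 2.29 (SE 0.15) for Cox7a1, 2.29 (SE 0.14) for Cox8b and 2.28 (SE 0.15) for Cox6a2, which do not differ beyond their SE. For Cox6a2 this was a 4.86-fold excess. Uqcrfs1 at 2.05 (SE 0.13) and Atp5g1 at 1.999 (SE 0.13) came next. Cox6b2, on few counts, was at 2.08 (SE 0.52), or 3.84 (SE 1.004) with the replicate block, so that its place in the order is uncertain. The core of complex I lay between 1.41 and 1.84, complex III between 1.55 and 2.05, and the F1 part of complex V between 1.16 and 1.69. Lower values were found for Atp5g2, 0.60 (SE 0.08), and Cox7a2l, 0.61 (SE 0.10), and the assembly factors Ndufaf6 and Ndufaf7 did not pass the test. With the replicate block Cox7a2l did not pass the test either (adjusted p = 0.0655). Cox8a was at -0.32 (SE 0.10, adjusted p = 0.00893) and Cox6a1 at -0.73 (SE 0.09, adjusted p = 6.1e-08). In 81 genes every Ago2-IP control library lay above every polyA control library, and in 2 genes below, against 33% and 33.7% of all genes. The median ratio of the 24 cardiac muscle markers tested was 2.29. Their part in the ratio of the respiratory chain genes was not tested.

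After miR-106b transfection the ratio was lower for most of these genes. It was above 0 for 75 of the 85 genes and below 0 for Cox6a1 and Cox8a, against 21.9% and 24.5% of all genes (46.4% in either direction), with a median of 0.67. The change of the ratio itself, tested as the interaction of transfection and RNA kind, was a fall in 73 of the 85 genes and a rise in none, against 19.7% and 7.61% of all genes (27.3% in either direction). At an unadjusted p under 0.05 there were 75 of the 85 genes and 5678 of 14897. With DESeq2's Wald test there was likewise no rise, and 1 gene, Cox6a1, rose with scaling by library size only or by TMM within each RNA kind. Of all genes, library size only gave 13.4% rises and 15.5% falls, and TMM within each RNA kind 13% and 15.9%. In both, 73 of the 85 genes fell. The median change was -0.92 over the 85 genes and -0.07 over all genes. This test uses the same polyA libraries as the comparison in polyA RNA, so that its values are not independent of those above.

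The falls were largest for Cox4i2 at -1.45 (SE 0.30), Cox6a2 at -1.39 (SE 0.21), Cox7a1 at -1.37 (SE 0.20), Cox8b at -1.36 (SE 0.19) and Ndufa4l2 at -1.35 (SE 0.24), all with an adjusted p under 0.05. All 8 genes of complex III fell, by 0.94 to 1.23, and all 7 core subunits of complex I, by 0.78 to 1.11. The 12 genes that did not pass included 6 of the 7 assembly factors and the common or ubiquitous forms Cox6a1, at 0.17 (SE 0.12), Cox8a, at -0.08 (SE 0.15), and Atp5g2, at -0.25 (SE 0.12), or -0.29 (adjusted p = 0.0461) without polyA miR-106b replicate 1. Ndufb2, with GCACTTT in its longest annotated 3′UTR, was at -0.48 and did not pass either. The median change of the 24 cardiac muscle markers tested was -1.40. Medians were -1.42 for leukocyte and red cell, -1.41 for endothelial, -1.09 for juxtaglomerular and mural and 0.71 for kidney epithelial markers. They were -0.93 for complex II and cytochrome c, -0.89 for mitochondrially encoded subunits and -0.44 for assembly factors of complexes III and IV. Regulators had -0.33, with Ppargc1a lowest at -1.38.

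**Figure D5:**
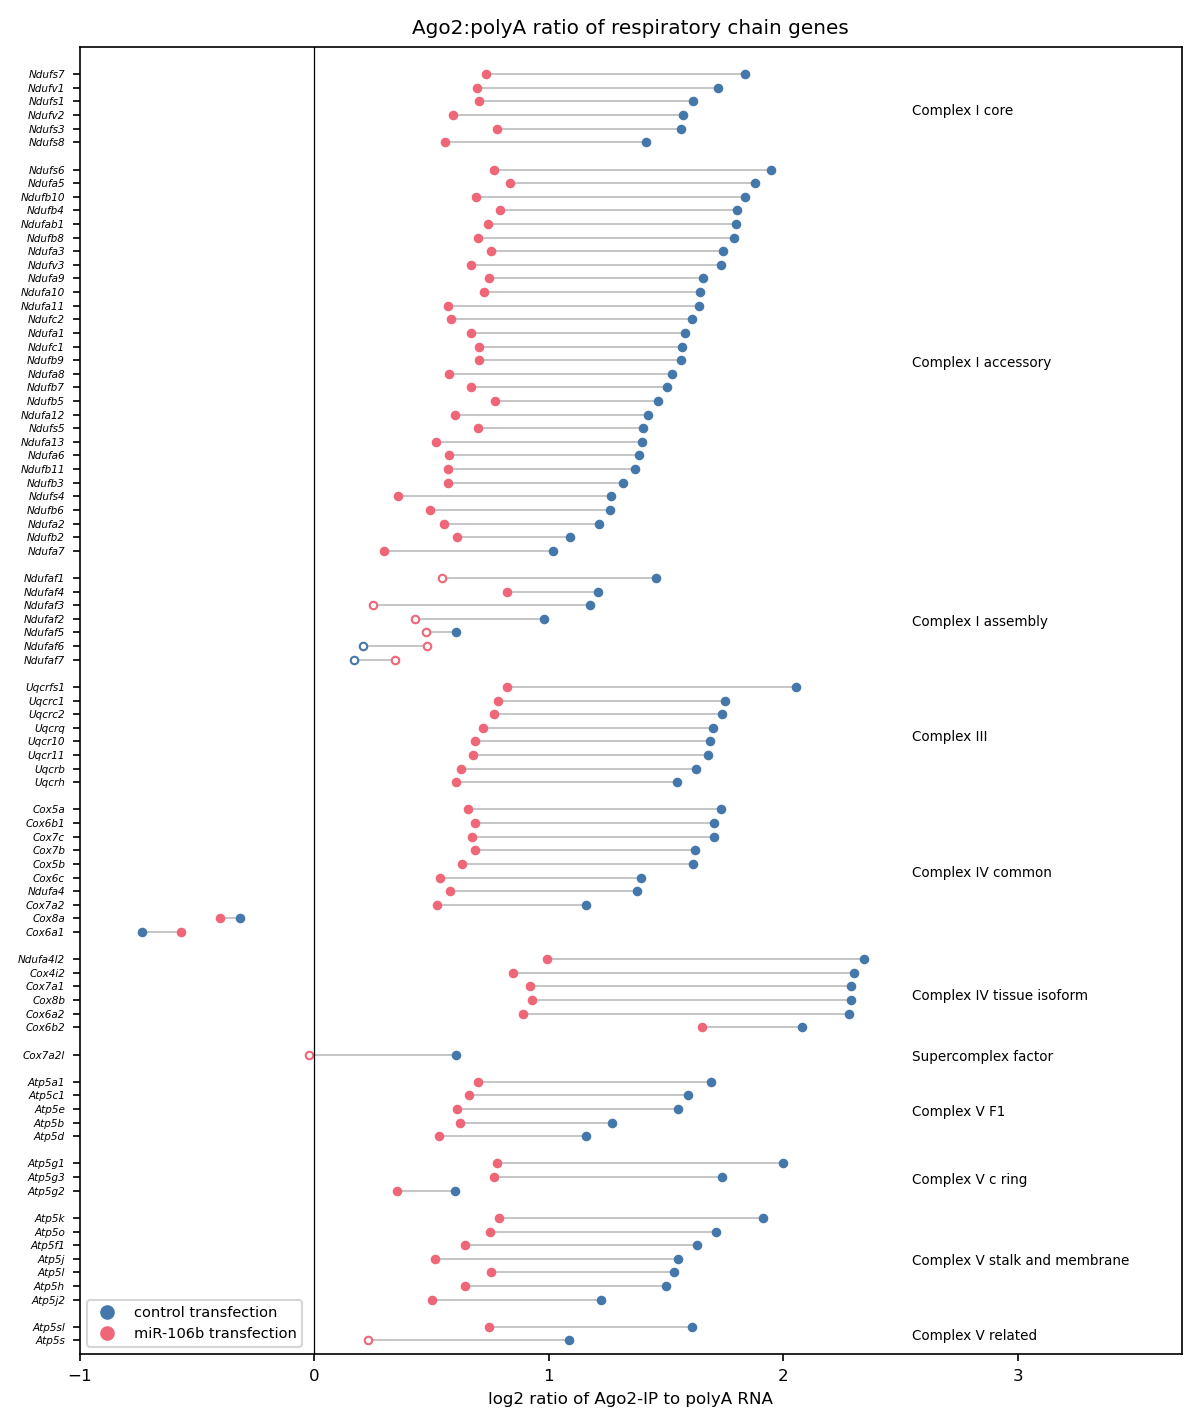
Log2 ratio of Ago2-IP to polyA RNA (x axis) of tested genes (1 left out) in control (blue) and miR-106b (red) cells, grouped by role, with open points where the adjusted p was 0.05 or more. Most blue points lie between 1 and 2 and most red points below 1, whereas Cox6a1 and Cox8a lie below 0 in both.

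Promoters were examined as a feature that the choice of genes did not use. A RefSeq window from 250 bases before to 50 after the start (GRCm38.p6) was found for 73 of the 87 genes. The palindromic NRF1 motif occurred on either strand in 9.59% of these windows and in 1.96% of 10859 windows of tested genes. The YY1 motif AAGATGGC was in 13.7% against 4.56%, and the ERR motif AAGGTCA in 9.59% against 3.07%. The ETS motif CCGGAAG was in 19.2% against 17.3%, the E-box CANNTG in 74% against 63.4%, and a MEF2 motif in 0% against 0.525%. A match is a run of letters and not a bound site.

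The 120 bases just before the start are printed for 3 genes whose polyA level fell or did not pass the test and 4 that rose, because they are the isoforms that parted in polyA RNA. Capitals mark the motifs above, in either orientation. Cox6a1 has an ETS match, Atp5g2 an NRF1 match, Atp5g3 an ERR match, and Cox7a1 has no match in this stretch. The full windows hold more: an NRF1 match in Cox6a1, an ETS match in Cox8a and E-boxes in Cox7a1, Atp5g2 and Atp5g3. Cox7a2, the common form of subunit 7a, also had a window, with an E-box, and is not printed. The other capitals below are E-boxes.
Cox6a1, chr5:115348959-115349078, minus strand: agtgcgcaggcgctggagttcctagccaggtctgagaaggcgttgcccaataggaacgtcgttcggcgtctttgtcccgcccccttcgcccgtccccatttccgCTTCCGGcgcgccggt
Cox8a, chr19:7217617-7217736, minus strand: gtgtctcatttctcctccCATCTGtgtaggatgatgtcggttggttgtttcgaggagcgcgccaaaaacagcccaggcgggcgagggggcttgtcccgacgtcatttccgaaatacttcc
Atp5g2, chr15:102671048-102671167, minus strand: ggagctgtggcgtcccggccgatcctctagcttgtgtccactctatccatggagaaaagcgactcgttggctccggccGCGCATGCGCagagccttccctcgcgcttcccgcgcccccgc
Cox7a1, chr7:30184051-30184170, plus strand: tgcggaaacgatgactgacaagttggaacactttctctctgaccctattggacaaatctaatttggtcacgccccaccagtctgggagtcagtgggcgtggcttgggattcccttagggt
Cox8b, chr7:140900447-140900566, minus strand: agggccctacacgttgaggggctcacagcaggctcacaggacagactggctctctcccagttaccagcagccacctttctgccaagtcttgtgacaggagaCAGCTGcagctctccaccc
Atp5g1, chr11:96075632-96075751, minus strand: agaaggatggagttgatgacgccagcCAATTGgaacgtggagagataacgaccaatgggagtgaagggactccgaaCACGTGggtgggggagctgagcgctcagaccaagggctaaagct
Atp5g3, chr2:73911327-73911446, minus strand: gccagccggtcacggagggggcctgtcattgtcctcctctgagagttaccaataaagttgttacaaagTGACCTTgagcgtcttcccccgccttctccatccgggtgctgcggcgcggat
Cox6a2, Ndufa4l2 and Cox4i2 had no window in this table and are named only.

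Some of the 87 genes share sequence with other genes. In 8 of them at least 20% of the 50-base stretches also occur in other annotated genes, led by Ndufaf2 (64.1%), Atp5o (41.6%) and Atp5g2 (38.4%). Since the libraries were not strand-specific, reads from overlapping genes on opposite strands cannot be told apart, and at least 20% of the exon bases were overlapped in 4 genes. The values of these genes are uncertain to that extent.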

How the data were processed

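The authors deposited raw read counts for each gene in each library, which are whole numbers and were neither normalized nor filtered. According to the methods and the submitters' processing notes, single-end reads of 50 bases were stripped of ribosomal RNA, aligned to GRCm38 with TopHat2 and counted on genes with HTSeq, whose handling of reads shared between copies can lower such genes. Columns were matched to samples by name. Libraries were scaled by TMM within each RNA kind (over all 16 libraries for the Ago2:polyA ratio) and tested with edgeR 4.0.16 in R 4.3.3 (quasi-likelihood F test, robust dispersion, two-sided) with Benjamini-Hochberg adjustment over 14897 genes and a threshold of 0.05. Single values and isoform ratios (0.5 added to counts) were compared by exact permutation tests. The scripts were tested on simulated counts. Alternatives were DESeq2 1.42.0 size factors and Wald test, library size only, other filters, all 16 libraries in 1 fit, TMM within RNA kinds for the ratio, a replicate block and leaving out each library.

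Depth limits low genes, and 3 counts, the limit that a count of 0 allows, equal 0.317 to 1.16 CPM per library. Intervals of this kind cover counting error only. Gene starts in the table count from 0 and were raised by 1, which then matches GENCODE M21 for 59 of the 87 genes. Lengths are those of principal transcripts. The genes, roles, marker lists and tests were chosen with earlier results of these data known. Genes given by name are isoform pairs, the core of complex I, Uqcrc1, Uqcrc2, Uqcrfs1, Cox5a, Cox5b, Atp5a1, Atp5b, Atp5c1, the 5 largest rises and falls per comparison among genes past the threshold with at least 5 CPM, genes that failed the filter and the extremes of companion lists. The values of 1 gene are not reported here. Others (Ndufb10, Ndufb2, Ndufa10, the Ndufaf genes, Atp5k, Atp5j2, single markers and regulators) were chosen after their values were seen.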

Additional observations from a re-analysis of the deposited data

Results flagged for a closer look

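Within groups, 132 sets of 4 replicates (31 named genes and the summed levels of the respiratory chain genes and of the cardiac markers, in 4 groups) were searched for a library far from the other 3 by Dixon's ratio, and 2 were found, where chance gives about 1 in 20. Atp5g2 was at 193 CPM in Ago2-IP miR-106b replicate 4 and between 175 and 177 CPM in the other 3. Ndufv1 was at 842 CPM in Ago2-IP control replicate 2 and between 808 and 812 CPM in the other 3. The change with miR-106b differed between polyA and Ago2-IP RNA in 73 of the 85 genes tested, by the interaction test, against 27.3% of all genes.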

How the results depend on the processing

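Counts of respiratory chain genes called higher in polyA RNA ran from 74 to 79 over the alternatives tried and from 71 to 77 with each library left out in turn (76 as reported). Those called above 0 in the Ago2:polyA ratio ran from 78 to 81 in control and from 67 to 75 after miR-106b, and those whose ratio fell with miR-106b from 73 to 74. The call of Cox6a1 as lower in polyA RNA, the only fall, was lost (0 genes) with DESeq2 size factors, with no filter and with all 16 libraries in 1 fit, and leaving out each library gave 0 to 1. No filter gave 1 gene lower in Ago2-IP RNA, as did leaving out single libraries (0 to 1). Library size only and TMM within each RNA kind each gave 1 gene, Cox6a1, whose ratio rose. They moved the split of all genes in this test from 7.61% rises and 19.7% falls to 13.4% and 15.5%, and to 13% and 15.9%. Cox8a reversed in polyA RNA with all 16 libraries in 1 fit (0.0030), and in the change of the ratio with library size only (0.089), no filter (0.067) and TMM within each RNA kind (0.064), and ran from -0.12 to 0.037 with each library left out. Cox6b2 reversed in polyA RNA without polyA miR-106b replicate 2 or 4 (range -0.23 to 0.89), and in the change of the ratio without replicate 2 (range -0.91 to 0.20). With each library left out, the Ago2-IP isoform differences ran from -0.040 to 0.054 for Cox6a2, from -0.058 to 0.12 for Cox6b2 and from -0.0094 to 0.079 for Cox8b. The causes were not tested. Scaling by DESeq2 size factors moved the split of all genes called in polyA RNA from 19% higher and 21.5% lower to 21.2% and 17.7%, all 16 libraries in 1 fit to 25.7% and 16.2%, and library size only moved the ratio in control from 35.1% and 34.6% to 27.8% and 45.5%. The replicate numbers did not pair the libraries, with correlations of same-numbered libraries from -0.46 to 0.30, and the fit with the replicate block called 74 genes higher and 1 lower in polyA RNA (17.3% and 19.7% of all genes), 78 above 0 in the ratio of control (26.4%), 67 in that of miR-106b (13%), and 73 falls of the ratio (17.7%). Of 31 genes followed singly in polyA RNA, the ratio of control and its change (isoform pairs, the core of complex I and main subunits of the others), Cox7a2l lost its call in the ratio of control with the block (0.38, adjusted p = 0.0655). Their other calls under the block were as reported. Under other settings calls moved for Cox6a1 and Atp5g2 (polyA RNA and the change of the ratio) and for Cox7a2 and Atp5b (polyA RNA), as given with their values above. Ndufaf1, Ndufb2 and the ratio after miR-106b were not followed singly.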
